A study of Mus musculus with 14 samples.

Results

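The genes described here are 10 mouse genes of urea synthesis and of the release of ammonia from glutamine and glutamate, chosen by symbol. They are Nags, Cps1, Otc, Slc25a15, Ass1, Asl, Arg1 and Arg2 of the urea cycle, and Gls2 and Glud1, which feed it with ammonia. All 10 were read among the 19660 genes of the liver count table, and 8 of them among the 20203 genes of the kidney count table. Nags and Gls2 were not analysed in the kidney counts.

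RNA was taken from the liver and kidney of adult male mice of 12 weeks transgenic for human angiotensinogen (haplotype -6A). The 4 groups were liver on the normal diet (4 libraries), liver on high salt (4), kidney on the normal diet (3) and kidney on high salt (3). Every group carried the transgene, so no group without it enters any comparison here. The strain, the salt content, the length of the diet, and whether libraries come from separate animals are not given in the sources used here, so p-values measure only the spread between these samples. Normal diet liver libraries have the numbers 1 to 4 and kidney libraries the numbers 1 to 3 of their titles, and high salt liver libraries the names HS5 to HS8 of their columns.

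The urea cycle turns toxic ammonia into urea for excretion. Its first steps run in mitochondria, where carbamoyl phosphate is made and joined to ornithine to give citrulline, and the rest run in the cytosol, where citrulline becomes argininosuccinate, arginine and then urea and ornithine. The whole cycle is known from hepatocytes, most of all those near the portal vein, whereas the proximal tubule of the kidney is known to use only the middle of it, to make arginine for the body from circulating citrulline.

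The RefSeq promoter table (GRCm38.p6) matched 5 of the 10 genes (Nags, Otc, Slc25a15, Ass1 and Glud1). The 250 bases before the start are shown for 4 of them, to let the base composition before the starts of genes of 1 pathway be compared. That of Ass1 is not printed, since part of it lies within the GENCODE gene. They are chr11:102145263-102145512 (plus strand) for Nags, chrX:10252055-10252304 (plus strand) for Otc, chr8:22398622-22398871 (minus strand, before the more upstream RefSeq start) for Slc25a15 and chr14:34310477-34310726 (plus strand) for Glud1. Capitals mark each GC box, GGGCGG or its reverse complement CCGCCC.
Nags: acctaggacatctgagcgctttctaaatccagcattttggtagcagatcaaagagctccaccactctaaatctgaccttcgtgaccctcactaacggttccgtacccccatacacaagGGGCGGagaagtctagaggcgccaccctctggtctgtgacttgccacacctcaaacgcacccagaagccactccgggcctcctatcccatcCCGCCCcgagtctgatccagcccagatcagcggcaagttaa
Otc: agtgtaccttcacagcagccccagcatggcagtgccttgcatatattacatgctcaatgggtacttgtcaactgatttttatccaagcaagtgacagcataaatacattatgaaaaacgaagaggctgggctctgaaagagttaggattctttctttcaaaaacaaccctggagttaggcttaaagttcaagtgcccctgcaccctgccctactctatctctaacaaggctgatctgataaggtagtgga
Slc25a15: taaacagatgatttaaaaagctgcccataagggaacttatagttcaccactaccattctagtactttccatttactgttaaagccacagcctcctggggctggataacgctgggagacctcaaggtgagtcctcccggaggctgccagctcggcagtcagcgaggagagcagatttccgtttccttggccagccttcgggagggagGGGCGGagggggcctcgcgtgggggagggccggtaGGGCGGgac
Glud1: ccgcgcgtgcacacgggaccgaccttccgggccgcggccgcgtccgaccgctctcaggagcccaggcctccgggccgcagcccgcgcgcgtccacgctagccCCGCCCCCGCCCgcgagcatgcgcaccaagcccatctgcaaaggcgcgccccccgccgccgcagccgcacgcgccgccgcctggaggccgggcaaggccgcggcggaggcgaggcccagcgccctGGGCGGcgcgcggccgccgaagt

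Of the 4 windows shown, that of Otc is the poorest in GC, at 43.6%, with 1 CG pair and no GC box. That of Glud1 is the richest, at 82.0%, with 46 CG pairs and 3 GC boxes, while Nags (55.6%) and Slc25a15 (57.6%) have 11 CG pairs and 2 GC boxes each. For Slc25a15 this depends on the start: the window before its other RefSeq start has 80.4% GC, 43 CG pairs and 5 GC boxes. That window lies within the GENCODE gene, and the sequence after it was not found in a GENCODE transcript. The Ass1 window has 75.6% GC, 23 CG pairs and 1 GC box. The medians over 32851 RefSeq promoter windows of the same length were 52.4% GC and 6 CG pairs. A GC box on either strand was found in 32.7% of those windows. Neither TATAAA (12.4% of windows) nor CCAAT (33.8%) was found, on either strand, in the 4 windows shown. These matches describe letters in a window and do not show that a factor binds there.

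Liver libraries held 37267778 to 51487382 counts in all and kidney libraries 16046094 to 22004927. The labelled tissues showed their markers: Alb stood at 32440 to 85230 CPM (counts as a rate per library size, after TMM scaling) in every liver library, and the tubule gene Kap at 19940 to 55670 CPM in every kidney library. Some liver libraries stood apart. Transcripts of the mitochondrial genome made up 2.30% of normal diet library 1 and 2.06% of library 2, but 18.7% and 29.6% in libraries 4 and 3 and 11.3% to 19.2% on high salt. In normal diet library 4 the sum of 5 acute phase genes reached 58320 CPM, against 2952 to 5560 CPM in libraries 1 to 3. On high salt it was 1664 to 2254 CPM, below every normal diet library. Libraries HS5 and HS6 were more alike than any other pair of the same group, with a chi-square per gene of 1.65. The 11 other liver pairs had 10.4 to 63.9, so liver results are also given with HS5 and HS6 summed to 1 library. In kidney, normal diet library 1 stood apart, with a chi-square per gene of 52.7 and 55.4 against libraries 2 and 3. Kidney libraries 2 and 3 of that diet differed by only 4.28. Kap was at 19940 CPM in library 1, against 53460 and 55670 CPM in libraries 2 and 3. The mitochondrial genome share of the kidney libraries was 23.5% to 41.2%.

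In normal diet liver, all members except Arg2 were well expressed. Per kb of transcript, Arg1, the cytosolic arginase that releases urea, had the highest level, at 982.5 ± 476 CPM per kb (SD, n = 4). Ass1, which joins citrulline to aspartate, followed at 435.7 ± 162.9, and Cps1, the mitochondrial enzyme that makes carbamoyl phosphate, at 407.7 ± 128.4. The next were Glud1 (glutamate dehydrogenase, 254.8 ± 68.0), Otc (ornithine transcarbamylase, 186.0 ± 71.1), Asl (argininosuccinate lyase, 178.3 ± 34.2) and Gls2 (liver-type glutaminase, 142.3 ± 30.0).

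Slc25a15, the carrier that exchanges ornithine for citrulline across the inner mitochondrial membrane, stood at 80.8 ± 10.6 CPM per kb. Nags, which makes the N-acetylglutamate that switches Cps1 on, was at 23.7 ± 8.97. Arg2, the mitochondrial arginase, was close to absent in liver, with 1 to 7 counts in a library. The ranges of neighbours in this order overlapped down to Gls2. Ass1 exceeded Cps1 in only 3 of the 8 liver libraries and Otc exceeded Asl in 4 of 8, so these neighbours were not separated. Arg1 was above Ass1, and Gls2 above Slc25a15, in 8 of 8.

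On high salt, none of the 9 members tested in liver passed the threshold (edgeR, adjusted p under 0.05), against 1.00% of all 15130 genes tested. All 9 fold changes lay below 0, as did 52.0% of all genes, with a median log2 fold change of -0.39 against -0.02 over all genes. At an unadjusted p under 0.05 there were 2 members, Slc25a15 and Ass1, both lower on high salt, where 21.2% of all genes had such a p (11.3% lower). Only Slc25a15 had diets that did not overlap, as did 12.5% of all genes (6.05% lower on high salt). The plot of liver levels by library shows each member.

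**Figure D1:**
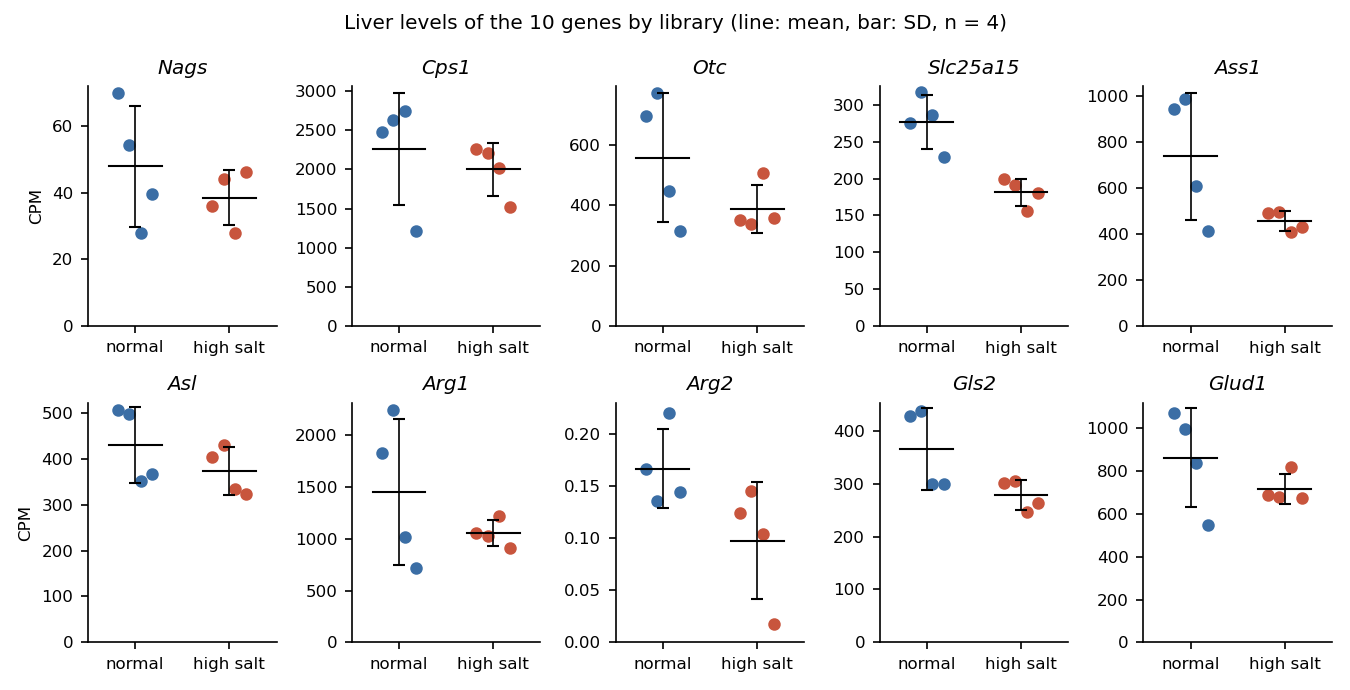
Liver level in CPM (vertical axes, starting at 0) of the 10 genes, with the normal diet at the left and high salt at the right. Each point is 1 library, lines are means and bars SD (n = 4). Among these genes, only Slc25a15 has high salt libraries that all lie below the normal diet libraries.

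The ornithine carrier gene Slc25a15 (chromosome 8, 22375551 to 22398597, minus strand, GRCm38) had the smallest p of the members. Its level in normal diet libraries 1 to 4 was 275.4, 317.8, 285.8 and 230.0 CPM. In HS5 to HS8 it was 198.9, 191.4, 156.7 and 180.2 CPM. The lowest normal diet library thus lay above the highest high salt library. The log2 fold change was -0.61 ± 0.16 (SE), and the adjusted p of 0.0989 (edgeR) missed the threshold. Without normal diet library 4, the acute phase library, it was -0.70 with an adjusted p of 0.0450, and DESeq2 on all libraries gave an adjusted p of 0.00817. Without normal diet libraries 1 and 2 it was -0.50 (adjusted p 0.219), and with HS5 and HS6 summed -0.65 (adjusted p 0.273). Over all genes, edgeR called 152 with every library and 409 without library 4. Without libraries 1 and 2 it called 52, and with HS5 and HS6 summed 12. The number of all liver genes called by DESeq2 is not given here, so its call of Slc25a15 has no share beside it.

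The 5 genes whose log2 CPM followed Slc25a15 most closely over the 8 liver libraries, of 6689 candidates, were Ei24 (r = 0.981), Paip2b (0.972), Immt (0.969), Gstk1 (0.969) and Ppt1 (0.967). Immt organises the folds of the inner mitochondrial membrane, and Ppt1 is a lysosomal thioesterase. All 5 were lower in every high salt library than in any normal diet library, as were 6.05% of all genes. They were picked for following Slc25a15, whose diets do not overlap, so this count largely follows from the choice. Their adjusted p-values were 0.0660 to 0.165 (edgeR), so none passed. These r values were the highest of a large search over few libraries and carry no test.

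Ass1 (chromosome 2, 31470207 to 31520672, plus strand) had the lowest fitted fold change. Its levels were 946.9, 987.9, 609.2 and 411.7 CPM in normal diet libraries 1 to 4 and 492.3, 496.3, 410.8 and 432.5 CPM in HS5 to HS8. Libraries 1 and 2 were high, and library 4 lay within the high salt range. The log2 fold change was -0.69 ± 0.28 (SE; edgeR adjusted p 0.198), and -0.16 without libraries 1 and 2 (adjusted p 0.768).

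Gls2 (chromosome 10, 128194457 to 128210004, plus strand) converts glutamine to glutamate and ammonia in liver mitochondria. It was read at 427.8, 438.0, 298.6 and 299.7 CPM on the normal diet and at 301.1, 304.5, 246.6 and 262.5 CPM on high salt. Libraries 1 and 2 were again the high ones, and libraries 3 and 4 fell among the high salt values. The log2 fold change was -0.39 ± 0.19 (SE; edgeR adjusted p 0.268), and -0.10 without libraries 1 and 2. An exon of Gls2 overlaps Spryd4 on the opposite strand, and whether the counting used strand is not given in the sources used here, so their reads cannot be told apart. Spryd4 itself stood at 19.8 to 51.8 CPM in liver.

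Arg1 (chromosome 10, 24915221 to 24927484, minus strand) had the widest spread of the 9 tested members on the normal diet, with a coefficient of variation of 48.4%. It ran from 720.3 CPM in normal diet library 4 to 2237 CPM in library 2, with 1829 and 1018 CPM in libraries 1 and 3. On high salt it stayed between 912 and 1221 CPM, inside the normal diet range. Otc (chromosome X, 10252305 to 10321024, plus strand) was at 696.6, 772.1, 445.8 and 315.8 CPM on the normal diet and at 351.1, 338.4, 507.1 and 356.3 CPM on high salt. HS7 was its high library within high salt. Their log2 fold changes were -0.46 ± 0.34 and -0.52 ± 0.29 (SE; edgeR adjusted p 0.446 and 0.324).

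Cps1 (chromosome 1, 67123026 to 67231259, plus strand) was higher in normal diet library 3 than in library 1. Of the other members tested in liver, only Slc25a15 was so too. The levels of Cps1 were 2474, 2629, 2748 and 1208 CPM on the normal diet and 2259, 2213, 2019 and 1514 CPM on high salt. Library 3 was its highest and library 4 its lowest of all 8. The log2 fold change was -0.18 ± 0.29 (SE; edgeR adjusted p 0.748). The other 3 members, Nags (chromosome 11, 102145513 to 102149477, plus strand), Asl (chromosome 5, 130011258 to 130029247, minus strand) and Glud1 (chromosome 14, 34310727 to 34345265, plus strand), had log2 fold changes of -0.32 ± 0.28, -0.21 ± 0.20 and -0.27 ± 0.23 (SE), with adjusted p-values of 0.512 to 0.552 (edgeR). Their diets overlapped, with 27.9 to 70.0 CPM for Nags, 322.4 to 505.2 CPM for Asl and 550.8 to 1072 CPM for Glud1 over the 8 libraries. An exon of Nags overlaps Gm11586 on the opposite strand, which had 0.126 to 0.495 CPM in liver.

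The shared direction depended on keeping normal diet libraries 1 and 2. In both, all 9 members lay above their own mean over the 8 libraries, with a median log2 distance of 0.47, and in library 4 only 1 of 9 did, with a median of -0.45. The mean of libraries 1 and 2 exceeded that of libraries 3 and 4 by a ratio of 1.15 (Slc25a15) to 2.34 (Arg1). With libraries 1 and 2 left out, the normal diet was read from libraries 3 and 4 only, so that fit leans on the low library 4. In it, 3 members had fold changes below 0 and 6 above 0, with a median of 0.03. With HS5 and HS6 summed, and without library 4, all 9 stayed below 0, with medians of -0.44 and -0.49. Libraries 1 and 2 were also those with the low mitochondrial genome share given above, whose part in the result was not tested.

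**Figure D2:**
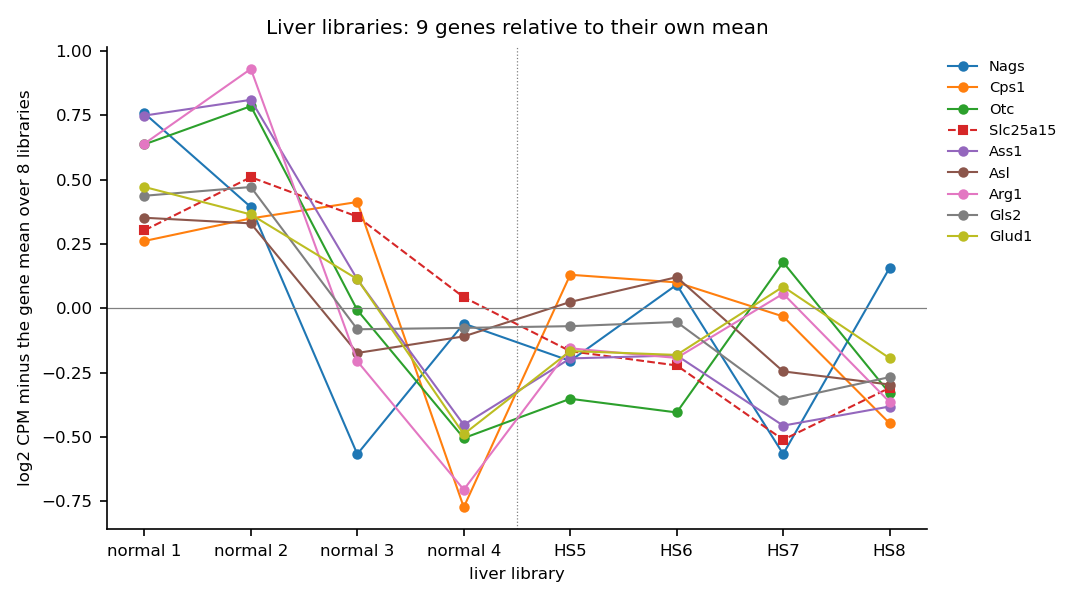
Distance of each of 9 genes from its own mean log2 CPM over the 8 liver libraries (vertical axis, log2) by library (horizontal axis; the dotted line divides the diets). All 9 genes lie above 0 in normal diet libraries 1 and 2, and 8 of 9 lie below 0 in library 4; the dashed line is Slc25a15.

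Over the 8 liver libraries, each of the 36 pairs of members had a positive r of log2 CPM, from 0.059 (Cps1 with Nags) to 0.949 (Otc with Arg1), with a median of 0.69. The points share library depth and scaling, and the 4 libraries of a diet share that diet, so r is given as a description. Cell type markers in the same libraries had the following summed levels. The 7 hepatocyte markers read summed to 59330 to 85600 CPM on the normal diet and 94160 to 112000 CPM on high salt. Most of each sum was Alb, at 32440 to 50640 and 67820 to 85230 CPM. The log2 fold change of Alb was 0.76 (edgeR adjusted p 0.190). Of the 7, 0 were called and 4 had fold changes below 0, so the higher sum does not describe the set. The 8 pericentral hepatocyte markers summed to 8668 to 12070 CPM on the normal diet and 5221 to 6718 CPM on high salt, most of it Cyp2e1. Called lower were 3 of 8 (Rhbg, Oat and Cyp1a2), where 1.00% of all genes were called in either direction. Only Rhbg was called with HS5 and HS6 summed. The others were not called, with log2 fold changes of -0.87 (Cyp2e1), -0.33 (Slc1a2), -0.20 (Lgr5), -0.001 (Glul) and 0.65 (Axin2). The 6 periportal markers summed to 2496 to 3495 and 2452 to 3078 CPM, with 0 of 6 called. The 10 immune markers summed to 75.4 to 172 and 47.7 to 87.4 CPM, with 0 of 9 called. Proximal tubule markers summed to 0.476 to 5.72 and 2.81 to 45.9 CPM. The part of any of these in the members' values was not tested, and in such bulk samples fewer cells of a type and less RNA per cell cannot be told apart.

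In kidney the members fell into those with high or moderate levels and those near 0. Ass1 had the highest level per kb, at 320.6 ± 31.9 CPM per kb on the normal diet (SD, n = 3), followed by Glud1 (107.7 ± 23.4), Slc25a15 (33.7 ± 6.40), Asl (16.1 ± 0.879) and Arg2 (2.22 ± 0.403). No 2 neighbours among these 5 overlapped, and the order was the same in 6 of 6 kidney libraries.

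Cps1, Otc and Arg1 were close to 0 in kidney. Cps1 had 0, 49 and 10 counts in normal diet libraries 1 to 3 and 10, 1 and 0 in high salt libraries 1 to 3. Otc had 0, 15 and 1 and then 4, 1 and 0, and Arg1 0, 44 and 1 and then 8, 4 and 0. A count of 0 allows up to 3 counts, or 0.150 CPM in normal diet library 1 and 0.136 CPM in high salt library 3, for counting error only. Normal diet library 2 carried most of these counts, and it also had the most Alb, a hepatocyte gene, with 610 counts against 54 to 226 in the others. In that library there were 80.3 Cps1 counts per 1000 Alb counts, where liver libraries had 22.3 to 60.7. The source of these counts was not tested.

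**Figure D3:**
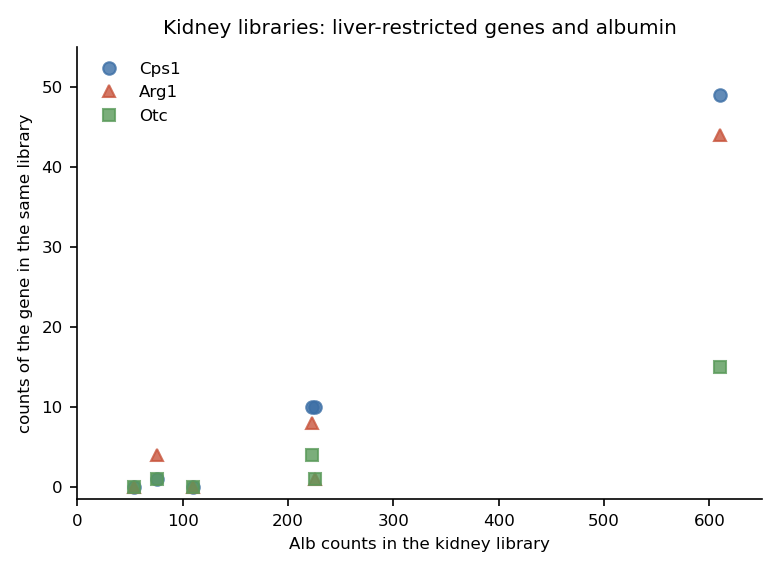
Counts of Cps1, Arg1 and Otc (vertical axis) against Alb counts (horizontal axis) in the 6 kidney libraries, 1 point per gene and library. The library with 610 Alb counts, normal diet library 2, holds 49 Cps1, 44 Arg1 and 15 Otc counts; the other 5 hold 10 or fewer of each.

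The authors' normalized kidney values list Gls2 at 1.97, 0 and 0 on the normal diet and at 1.69, 0 and 2.62 on high salt. These values are on a scale of their own and are not compared with the counts.

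High salt moved no member past the threshold in kidney: 0 of the 5 tested were called, as were 0% of 15847 genes (edgeR; 1 of 5 members and 2.01% of all genes at an unadjusted p under 0.05, or 1.27% with higher values, and 11 genes but no member with DESeq2). Arg2 (chromosome 12, 79130777 to 79156301, plus strand) had the highest fold change. It stood at 3.20, 2.58 and 3.73 CPM on the normal diet and at 3.44, 6.87 and 7.41 CPM on high salt. High salt libraries 2 and 3 were above all normal diet libraries and library 1 was among them. The log2 fold change was 0.89 ± 0.34 (SE), with an unadjusted p of 0.0288 and an adjusted p of 0.9996 (edgeR).

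Arg2 shares exonic sequence with Vti1b and Gm48780 on the opposite strand. Vti1b was read at 52.1 to 124 CPM in kidney, far above Arg2. Its log2 fold change was -0.40 ± 0.37 (SE; edgeR adjusted p 0.9996). Whether reads of Vti1b entered the Arg2 counts was not tested. Markers of the straight part of the proximal tubule, where Arg2 is known to be made, summed to 1820 to 1976 CPM on the normal diet and 1973 to 2746 CPM on high salt, with 0 of 4 called. Their part in the Arg2 values was not tested.

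Asl was the only member whose kidney diets did not overlap, as was so for 6.92% of all genes (3.85% higher on high salt). It was at 40.77, 39.18 and 36.55 CPM on the normal diet and 42.96, 42.91 and 51.73 CPM on high salt. The log2 fold change was 0.24 ± 0.18 (SE; edgeR adjusted p 0.9996). Ass1, its partner in making arginine, was at 485.3 to 591.7 CPM and 508.8 to 672.5 CPM, and its fitted log2 fold change was 0.08 ± 0.22 (SE). Slc25a15 and Glud1 had log2 fold changes of 0.06 ± 0.21 and -0.06 ± 0.23 (SE), smaller than their errors.

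**Figure D4:**
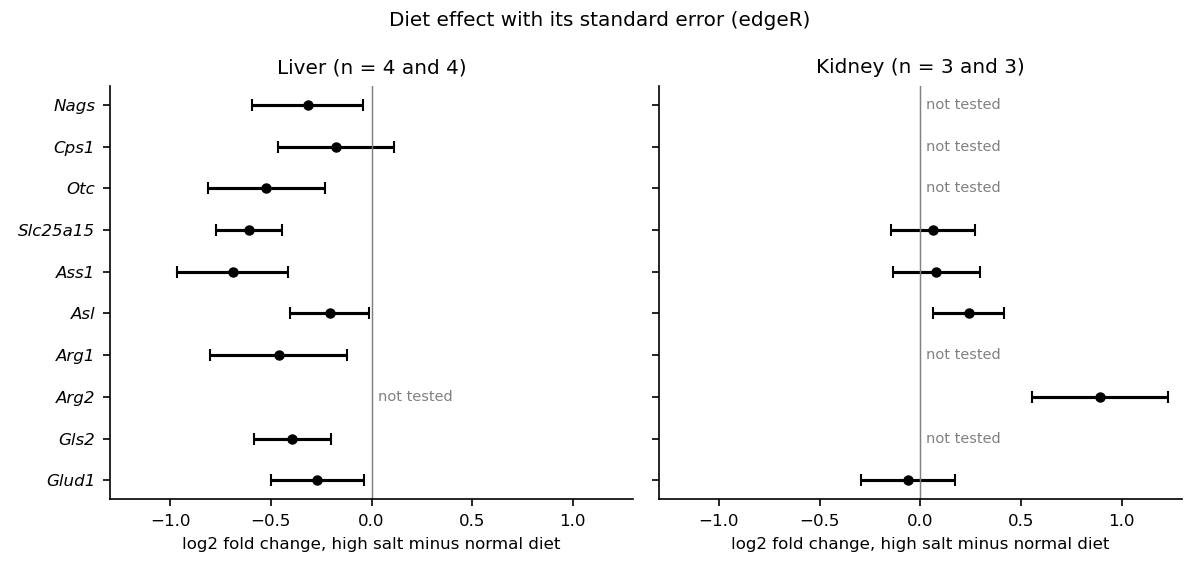
Log2 fold change of high salt against the normal diet (horizontal axes) with its standard error, for each gene, in liver (left) and kidney (right), from edgeR. All 9 liver values lie below 0, from -0.69 to -0.18, and the kidney values run from -0.06 to 0.89; genes with too few counts or not analysed in a tissue are written as not tested.

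Whether the diet effect differed between tissues was tested over the 16633 genes that passed the filter in the fit of all 14 libraries. Enough counts in either tissue let a gene pass. None of the 8 members was called, as were 0% of all genes (edgeR; 2 of 8 members and 10.1% of all genes at an unadjusted p under 0.05, or 4.26% below 0, and 145 genes but no member with DESeq2). The liver effect minus the kidney effect was -1.64 ± 0.64 on the log2 scale for Arg2 (unadjusted p 0.0206, adjusted p 0.419) and -0.67 ± 0.29 for Slc25a15 (unadjusted p 0.0340, adjusted p 0.466, edgeR). The Arg2 value rests in liver on 1 to 7 counts a library. For Ass1 it was -0.78 ± 0.43, for Asl -0.45 ± 0.32 and for Glud1 -0.22 ± 0.39 (SE; edgeR adjusted p 0.549 to 0.878). The values of Cps1 (2.39), Otc (1.20) and Arg1 (1.56) have errors of 1.29 to 1.42 and rest on the few kidney counts given above; without kidney normal diet library 2 they were of the opposite sign for Otc (-2.11) and Arg1 (-3.29).

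Between the tissues on the normal diet, all 8 members tested were called, 7 of them higher in liver and Arg2 lower. Of all genes, 65.1% were called (32.9% higher and 32.2% lower in liver). A call by itself thus sets the members little apart, and the sizes are given. Cps1, Otc and Arg1 were too low for the kidney diet test and Arg2 for the liver one. They passed the joint filter by their levels in the other tissue, so their calls are partly set by that filter. The tables of the tissues were quantified apart by the authors, and levels below are on 1 TMM scale over all 14 libraries, whose mean factor was 0.787 for normal diet liver and 1.14 for normal diet kidney.

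Cps1 and Otc of the mitochondrial steps and Arg1 of the last step were high in liver and near 0 in kidney. Cps1 was at 2706 ± 896.4 CPM in liver (SD, n = 4) and 0.911 ± 1.25 CPM in kidney (SD, n = 3), Otc at 670.4 ± 281.6 and 0.252 ± 0.402 CPM, and Arg1 at 1750.0 ± 910.9 and 0.713 ± 1.20 CPM. The fitted log2 differences were 11.57 ± 1.19, 11.46 ± 0.91 and 11.32 ± 1.26 (SE; edgeR adjusted p 6.43e-07, 4.30e-08 and 1.55e-06). They depend on kidney normal diet library 2: without it they reached 13.71, 14.79 and 16.17.

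The arginine-making steps differed in another way. Asl was at 513.9 ± 120.4 CPM in liver and 31.7 ± 1.64 CPM in kidney, a log2 difference of 4.02 ± 0.26 (SE; edgeR adjusted p 5.10e-09). Ass1 was at 888.1 ± 365.2 and 443.4 ± 45.3 CPM, a log2 difference of 1.00 ± 0.31 (adjusted p 0.0105). The Ass1 call was lost without liver libraries 1 and 2 (0.40, adjusted p 0.197) and with total counts in place of TMM (0.48, adjusted p 0.243).

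Slc25a15 was higher in liver by 1.81 ± 0.22 and Glud1 by 1.80 ± 0.29 on the log2 scale (SE; edgeR adjusted p 3.03e-06 and 6.30e-05). Arg2 was the exception, at 0.197 ± 0.0417 CPM in liver and 2.58 ± 0.476 CPM in kidney, a log2 difference of -3.70 ± 0.44 (SE; edgeR adjusted p 2.92e-06). The plot of levels in both tissues shows these on 1 axis.

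**Figure D5:**
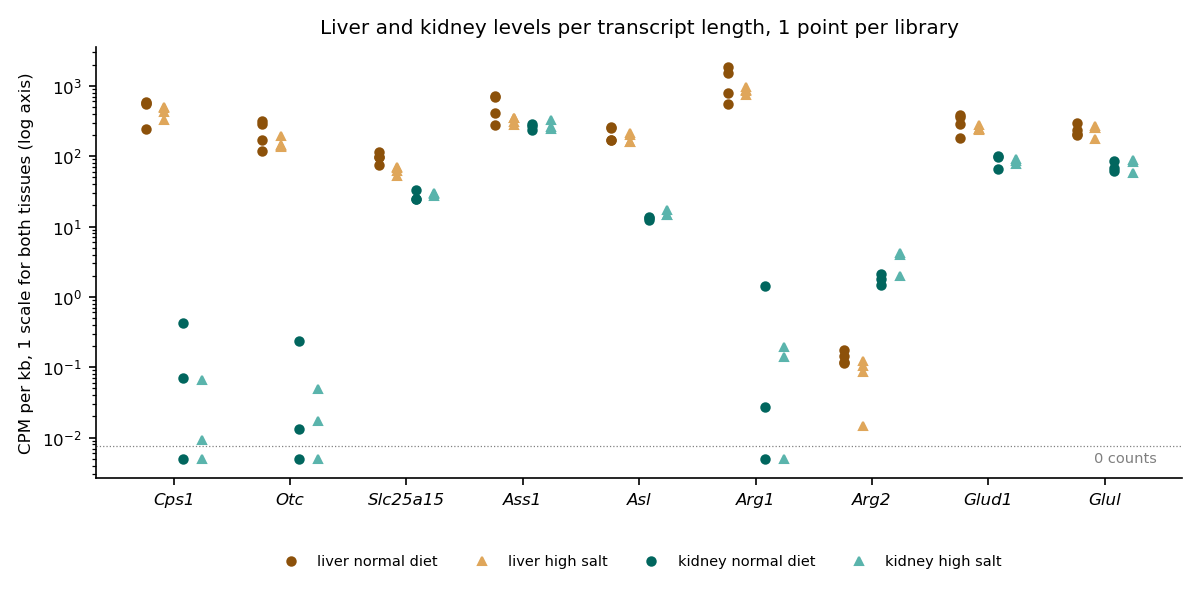
Level per kb of transcript (vertical axis, CPM per kb on a log scale, 1 TMM scale for all libraries) of 8 of the genes and of Glul, 1 point per library, by tissue and diet. Points under the dotted line are libraries with 0 counts; liver and kidney points are far apart for Cps1, Otc and Arg1 and close for Ass1, and kidney points are the higher ones for Arg2.

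Glul, glutamine synthetase, which in liver is made by the last cells before the central vein, was higher in liver by 1.70 ± 0.26 on the log2 scale (SE; edgeR adjusted p 4.23e-05). Exons of Glul overlap Teddm2 on the opposite strand and Mir8114, so its reads may include theirs.

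Ratios within a library do not depend on its scaling. In liver, the log2 ratio of Glul to Cps1 per kb was -1.42, -1.55, -1.26 and 0.28 in normal diet libraries 1 to 4 and -0.96, -0.93, -1.24 and -0.28 in HS5 to HS8. Library 4 had the highest ratio, and the diets overlapped. The difference was 0.14 (two-sided exact permutation p = 0.743). For Arg2 to Arg1 it was -0.78 (two-sided exact permutation p = 0.371, adjusted p 0.557 over 3 tests). That value rests on HS8, with 1 Arg2 count: it was -0.15 without HS8, and -1.52 to -0.15 over all alternatives. The smallest p that 4 against 4 libraries allow is 0.0286. In kidney no ratio was computed, because libraries with 0 counts of Cps1 and Arg1 give none.

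Genes around the cycle were read from 3 lists, described by their counts. The list of nitrogen neighbours holds enzymes and carriers of ammonia, glutamine, glutamate, ornithine and aspartate. In liver 2 of its 42 tested genes fell on high salt and 0 rose, where 1.00% of all genes were called, with a median log2 fold change of -0.10 against -0.02 over all genes. The genes were Rhbg, an ammonia transporter, which fell from 12.5 ± 3.84 to 2.54 ± 0.372 CPM (SD, n = 4; log2 fold change -2.30 ± 0.24 SE, edgeR adjusted p 0.00517), and Oat, ornithine aminotransferase, which fell from 790.9 ± 285.6 to 298.3 ± 48.1 CPM (log2 fold change -1.41 ± 0.27 SE, adjusted p 0.0451). Both are known as pericentral genes and were already counted among the pericentral markers above. Rhbg stayed called with HS5 and HS6 summed (adjusted p 0.0320) and without libraries 1 and 2 (0.0132), and Oat did not (0.189 and 0.0991).

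Among 44 tested genes of amino acid breakdown, 2 fell in liver and 0 rose, and 38 had fold changes below 0, as did 52.0% of all genes. The median was -0.38, against -0.02 over all genes, and -0.17 without libraries 1 and 2. The called genes were Pccb, a subunit of propionyl-CoA carboxylase (log2 fold change -0.71 ± 0.13 SE, edgeR adjusted p 0.0440), and Agxt2, a mitochondrial aminotransferase (-0.98 ± 0.19 SE, adjusted p 0.0490). Neither passed with HS5 and HS6 summed (adjusted p 0.192 and 0.204) or without libraries 1 and 2 (0.0991 and 0.136). Of 19 regulators of urea cycle genes, such as the glucagon receptor Gcgr and the transcription factors Cebpa and Hnf4a, 0 were called in liver, with a median of 0.19. Without library 4, further genes were called: Odc1 and Gpt lower among nitrogen neighbours (4 in all), and Gstz1, Cth and Kmo lower in amino acid breakdown (5 in all), and 1 regulator higher. Over all genes 409 were called in that fit, against 152 with every library. The 5 genes named in this way were chosen after their values were seen. In kidney 0 genes of the 3 lists were called (43, 39 and 19 tested).

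Between tissues on the normal diet, 26 of 43 nitrogen neighbours were higher in liver and 13 in kidney, beside 32.9% and 32.2% of all genes, which also stand beside the counts of the other lists. Higher in liver were Slc38a4, an amino acid transporter (8.92 ± 0.42, log2 difference and SE), Slc7a2, a carrier of arginine and ornithine (7.36 ± 0.38), and Gpt, alanine aminotransferase (6.09 ± 0.30). Higher in kidney were Gatm, which uses arginine for creatine synthesis (-6.17 ± 0.24), and Slc7a9, a subunit of the cystine and dibasic amino acid transporter (-10.97 ± 0.45). Of 42 amino acid breakdown genes, 32 were higher in liver, such as Uroc1 of histidine breakdown (4.64 ± 0.24), and 1, Dld, in kidney. Of 19 regulators, 10 were higher in liver, among them Gcgr (5.42 ± 0.28), and 3 in kidney (Creb1, Ppargc1a and Nfya). Leaving aside Dld and those 3, named after their values were seen, the adjusted p-values of the genes named were between 4.27e-11 and 4.01e-10 (edgeR).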

How the data were processed

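Liver and kidney RNA was sequenced from SMARTer mRNA libraries, per the labels' protocols. The authors deposited expected counts per gene, estimated in Partek by expectation maximisation (per the file headers), and a normalized signal per gene whose method is not given in the sources used here. Partek 7.0, STAR 2.5.3a, DESeq2 and the mm10 build are named in the submitters' processing notes, with no roles. High salt liver columns match no single title and were used as replicates of their group without a number of their own.

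Expected counts were rounded and tested with edgeR 4.0.16 in R 4.3.3 (quasi-likelihood, TMM, filterByExpr), for diet within each tissue, and over all 14 libraries with 4 group means for the interaction and the tissue comparison (17600 shared genes, of which 16633 passed the filter). Benjamini-Hochberg adjustment ran over all genes tested, with a threshold of 0.05. Of the 10 members, 9 passed the filter in liver, 5 in kidney and 8 in the joint fit. Within a tissue the filter keeps genes with enough counts in either diet. In the joint fit enough counts in any of the 4 groups suffice. CPM uses TMM library sizes, and CPM per kb divides by the longest coding GENCODE M21 transcript. Gene positions are from GENCODE M21. The fits were run on simulated counts whose changes were larger than the members' diet effects within a tissue, with a common spread. They do not show the power for effects of the members' size. The ratio tests were planned for both tissues, but only the 3 in liver could be computed, so their p-values were adjusted over 3. One of these ratios and single genes of the lists are not reported here.

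The common biological coefficient of variation was 0.314 (liver) and 0.300 (kidney). Low counts kept Arg2 in liver and Cps1, Otc and Arg1 in kidney out of the diet tests. Floors cover counting error only, since PCR reads that carry no molecular identifier are not independent.

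All members are named in each comparison, with list genes past the threshold (at most 8 per comparison, by smallest p), the ratio partner Glul and the 5 genes most like the member with the smallest liver p, among genes with a mean of 10 CPM. The members and lists were chosen with earlier results of these data known. Alternatives were RLE scaling, DESeq2 1.42.0, no filter, limma 3.58.1 on log2 of the deposited signal plus 1 or 0.1, 1 fit of all libraries, removal of mitochondrial genome genes, the replicate block in kidney, HS5 and HS6 summed, and leaving out libraries. Added after seeing the data were total counts without TMM, and the removal or summing of liver libraries for the joint fit, ratios and lists.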

Additional observations from a re-analysis of the deposited data

Results flagged for a closer look

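In 24 groups of 4 liver libraries, 2 members had 1 library far from the other 3 of its group, and chance alone gives about 1.2 such groups. Both were in high salt liver library HS7. Otc, ornithine transcarbamylase, was at 507.1 CPM there, against 338.4 to 356.3 CPM in HS5, HS6 and HS8. Glud1, glutamate dehydrogenase, was at 819.5 CPM, against 675.9 to 689.1 CPM. HS5 and HS6, the pair of most alike libraries, are among the other 3 in both cases.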

How the results depend on the processing

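Of 151 liver fold changes recomputed for single members, 143 kept direction and side of the threshold. Slc25a15 passed with DESeq2 and without normal diet library 4, so members called in liver were 1 with DESeq2 and 0 to 1 when each library was left out. Without normal diet libraries 1 and 2, 6 members turned to values above 0: Cps1 0.016, Otc 0.028, Asl 0.054, Arg1 0.278, Nags 0.189 and Glud1 0.047. All liver genes called were 152, against 409 without normal diet library 4 and 12 to 1122 over the alternatives. In kidney 64 of 70 values kept both, and leaving out each library gave -0.014 to 0.233 for Slc25a15, -0.229 to 0.055 for Glud1 and -0.047 to 0.162 for Ass1. For the interaction 157 of 160 did. Glud1 was 0.17 without normal diet liver libraries 1 and 2, and leaving out each library gave -2.114 to 2.68 for Otc and -3.286 to 2.404 for Arg1. All genes called were 0, against 0 to 145. The tissue difference kept both in 150 of 152, with 7 to 8 members called. The Glul to Cps1 difference was -0.359 without libraries 1 and 2, and -0.053 to 0.559 when each library was left out. The cause of these changes was not tested.

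Kidney samples of the same replicate number had an r of deviations of 0.407, 0.373 and -0.09, and those of unlike numbers -0.465 to 0.387. So few libraries cannot decide whether the numbers pair the samples. With the replicate block 0 kidney members were called, and Arg2 was 0.837. High salt liver columns carry no titled numbers, so no block was fitted there.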
